A study of Mus musculus with 23 samples.

Results

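The genes described here are 10 CC chemokines, *Ccl2*, *Ccl3*, *Ccl4*, *Ccl5*, *Ccl6*, *Ccl7*, *Ccl9*, *Ccl12*, *Ccl17* and *Ccl22*, out of 26512 genes measured. A gene was included when the transcript accession of an array probe maps to one of these names, and each of the 10 was measured by 1 probe. Macrophages were grown with the growth factor M-CSF from bone marrow of male mice aged 10 to 14 weeks, C57BL/6 by the sample labels and C57BL/6J in the paper. The mice were wild-type (wt), lacked the kinase MK2 (MK2-/-) or lacked both MK2 and MK3 (MK2/3-/-). The bone marrow-derived macrophages (BMDM) were given 100 ng/ml LPS, a component of the outer membrane of Gram-negative bacteria, or medium alone for 120 min. RNA of each sample was labelled with a single dye and put on its own array, giving 23 arrays in 6 groups of 4, except for 3 arrays of MK2-/- BMDM in medium. Both knockouts are constitutive, so that these macrophages also developed without the kinases. According to the methods, the arrays of a genotype and treatment come from separate experiments. All arrays of a genotype were on 1 slide, and genotype and slide cannot be told apart. On every slide the medium arrays were in row 1 and the LPS arrays in row 2, so that treatment and slide row cannot be told apart either.

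CC chemokines are small secreted proteins, named for a pair of neighbouring cysteines, that bind receptors on leukocytes and direct their migration. Macrophages that sense LPS through the receptor TLR4 transcribe many of them within hours, under control of NF-κB and interferon regulatory factors. MK2 and MK3 are kinases activated by p38, and MK2 is known to act on the stability and translation of cytokine mRNAs that carry AU-rich elements.

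Levels are given as normalized log2 signals, in which a difference of 1 is a doubling of the signal, and they can be compared between arrays but not between genes. The transcripts of the targeted genes were examined first. On arrays of BMDM in medium, *Mapkapk2*, which encodes MK2, gave 12.46, 12.64, 11.49 and 12.28 in wt, 9.07, 8.73 and 8.94 in MK2-/- and 8.61, 8.57, 8.91 and 8.79 in MK2/3-/- BMDM. For *Mapkapk3*, which encodes MK3, the medium arrays gave 13.12, 13.52, 13.58 and 13.78 in wt, 13.89, 13.60 and 13.73 in MK2-/- and 11.97, 11.56, 12.08 and 11.89 in MK2/3-/- BMDM. After LPS, *Mapkapk2* was at 14.84, 15.37, 14.19 and 14.67 in wt, 12.00, 11.89, 11.63 and 12.30 in MK2-/- and 11.54, 11.65, 11.58 and 12.26 in MK2/3-/- BMDM, and *Mapkapk3* at 13.96, 13.77, 14.35 and 13.94, then 13.93, 13.80, 14.07 and 14.10, and then 10.64, 10.36, 10.89 and 10.91. Within each treatment all arrays of both knockouts were below all wt arrays for *Mapkapk2*, and the MK2/3-/- arrays alone were below all others for *Mapkapk3*, as their labels say. Both probes stayed above background in the knockouts, and whether they lie in the deleted part of the genes was not examined.

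The cells carried the transcripts of macrophages. Of 7 macrophage markers 6 were measured (*Adgre1*, *Itgam*, *Csf1r*, *Fcgr1*, *Mertk* and *Lyz2*), and all 6 were well above background on every array, although LPS lowered 2 of 6 (*Fcgr1* and *Mertk*) in wt (8.78% of all genes) and MK2-/- BMDM (9.98%). Of 5 T cell markers 1 was well above background on every array (*Cd3e*) and 2 on none (*Cd3d* and *Cd8a*), and of 4 B cell markers 0 on every array and 2 on none. On every array 2 of 4 markers of neutrophils and their precursors, 1 of 2 of endothelium, 0 of 3 of mast cells and basophils and 0 of 3 of natural killer cells were well above background, and of the last LPS raised 1 of 3 (*Klrb1c*) in wt (8.16% of all genes), MK2-/- (8.41%) and MK2/3-/- BMDM (11.9%). LPS also raised 1 of 4 B cell markers in MK2-/- BMDM (8.41% of all genes) and 1 of 5 stromal markers in MK2/3-/- BMDM (11.9%). Stromal markers differed between the cultures. The collagen gene *Col1a1* ranged from 6.32 to 14.36, and both ends of this range lie among the arrays in medium. As these are bulk samples, fewer cells of a type and less RNA per cell cannot be told apart.

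In wt BMDM, LPS raised 9 of the 10 chemokines, while 8.16% of all 26512 genes were higher. In MK2-/- BMDM it raised 9 of 10 (8.41% of all genes), and in MK2/3-/- BMDM it raised 9 of 10 as well (11.9% of all genes). The exception was *Ccl6* in each genotype. In limma 0 of 10 fell with LPS in wt (8.78% of all genes), MK2-/- (9.98%) or MK2/3-/- BMDM (12.8%), and this number was also 0 at an unadjusted p under 0.05. With the methods' t-test 8, 9 and 9 chemokines rose in wt, MK2-/- and MK2/3-/- BMDM after adjustment, where 3036, 3805 and 4722 of 26512 genes passed in either direction. The paper used this t-test with a threshold of 0.05 and states no adjustment. Adjusted p-values given for it here and below therefore include a step that was added. The median log2 difference of the 10 chemokines was 6.03 for wt, 6.30 for MK2-/- and 5.05 for MK2/3-/- BMDM, beside 0.01, -0.01 and -0.02 over all genes. Scaling each array to its 75th percentile moved the median of all genes to 0.15 for wt, 0.20 for MK2-/- and 0.06 for MK2/3-/- BMDM, shifts that are small beside the changes of the 9 chemokines.

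Between genotypes, 0 of 10 chemokines passed the adjustment of limma in any comparison. After LPS this was 0 of 10 for MK2-/- against wt (0.0302% of all genes), 0 of 10 for MK2/3-/- against wt (1.64%) and 0 of 10 for MK2/3-/- against MK2-/- BMDM (0.158%), with 0, 0 and 1 at an unadjusted p under 0.05 (7.5%, 13.5% and 7.94% of all genes). For BMDM in medium it was 0 of 10 for MK2-/- against wt (0.00754%), for MK2/3-/- against wt (0.0792%) and for MK2/3-/- against MK2-/- BMDM (0.0453%), with 0, 2 and 1 at unadjusted p (3.4%, 4.66% and 3.62% of all genes). A difference in the LPS response itself, the interaction of treatment with genotype, passed for 0 of 10 between MK2-/- and wt (0.00377% of all genes), between MK2/3-/- and wt (0.0113%) and between both knockouts (0%), with 0, 1 and 0 at unadjusted p (1.92%, 4.55% and 2.89% of all genes). The methods' t-test gave 0 in all of these after adjustment, and at unadjusted p it gave 1, again for MK2/3-/- against MK2-/- BMDM after LPS, and 0 in the others. These comparisons share arrays, as each group enters several of them, and are not independent. So few genes of any kind passed in these comparisons that a count of 0 among 10 is close to the background.

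**Figure D1:**
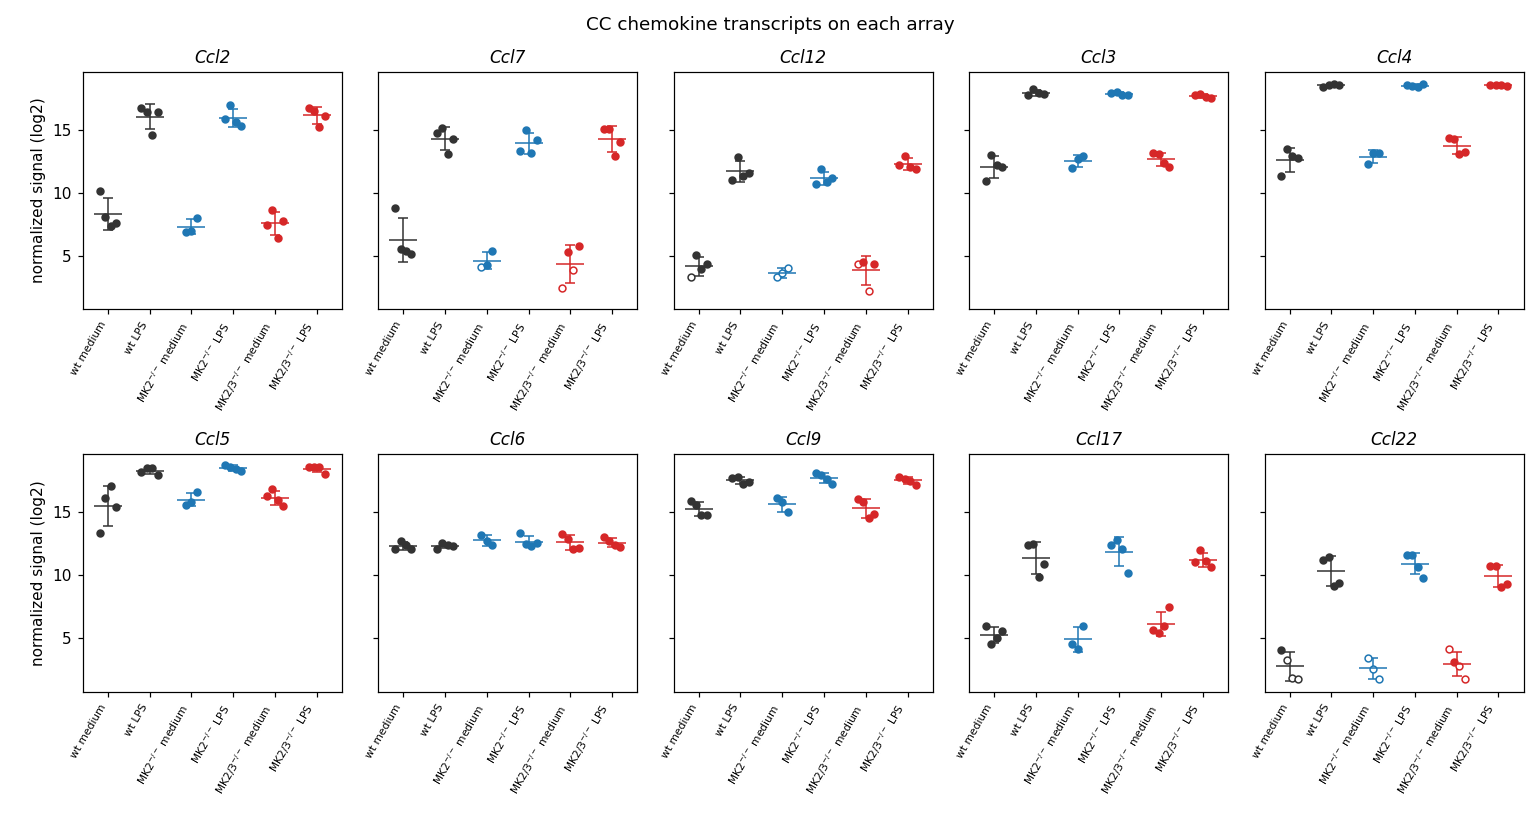
Normalized log2 signal of each chemokine on every array, by genotype and treatment. Points are arrays, open where the signal was not well above background, lines are group means and bars the SD; the LPS arrays lie above the medium arrays in each genotype for all but *Ccl6*.

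*Ccl2*, *Ccl7* and *Ccl12* encode ligands of CCR2, the receptor through which monocytes leave the bone marrow and enter inflamed tissue. On wt arrays *Ccl2* gave 10.16, 8.08, 7.38 and 7.58 in medium and 16.79, 16.44, 14.63 and 16.44 after LPS. In MK2-/- BMDM its signal was 6.92, 7.01 and 7.99 in medium and 15.85, 17.00, 15.63 and 15.34 after LPS. MK2/3-/- BMDM had 7.47, 8.68, 6.43 and 7.76 in medium and 16.76, 16.51, 15.26 and 16.08 after LPS. Medium and LPS arrays did not overlap in any genotype, whereas the genotypes overlapped within each treatment. The first wt culture had the highest *Ccl2* signal of all medium arrays, and the third wt culture the lowest of all LPS arrays. *Ccl2* rose 219-fold in wt (log2 difference 7.78, SE 0.61, adjusted p = 1.8e-08), 401-fold in MK2-/- (8.65, SE 0.66, adjusted p = 1.3e-08) and 380-fold in MK2/3-/- BMDM (8.57, SE 0.61, adjusted p = 3.83e-09). Without the first wt array in medium, the wt value was 337-fold.

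*Ccl7*, which lies next to *Ccl2*, spread more widely in medium, with 8.83, 5.56, 5.43 and 5.13 in wt, 4.14, 4.29 and 5.40 in MK2-/- and 2.49, 5.32, 3.87 and 5.81 in MK2/3-/- BMDM. After LPS it was at 14.74, 15.16, 13.12 and 14.27 in wt, 13.37, 15.02, 13.21 and 14.18 in MK2-/- and 15.08, 15.07, 12.91 and 14.07 in MK2/3-/- BMDM. The first wt array in medium again stood above the others, while 1 MK2-/- and 2 MK2/3-/- arrays in medium were not well above background. The rise was 271-fold in wt (8.08, SE 0.81, adjusted p = 4.88e-07), 646-fold in MK2-/- (9.33, SE 0.87, adjusted p = 2.05e-07) and 963-fold in MK2/3-/- BMDM (9.91, SE 0.81, adjusted p = 2.05e-08). The wt value was 494-fold without the first wt array in medium, and the MK2/3-/- value 624-fold without the first MK2/3-/- array in medium. In medium, MK2/3-/- differed from wt BMDM by -1.87 (95% confidence interval -3.56 to -0.17, unadjusted p = 0.0323, adjusted p = 1), and 2 of 4 MK2/3-/- arrays were below all wt arrays. Without the first wt array in medium the unadjusted p of this *Ccl7* difference was 0.178, and without the first MK2/3-/- array 0.142.

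*Ccl12* was near background in medium, with 3.29, 5.09, 3.92 and 4.38 in wt, 3.29, 3.61 and 4.08 in MK2-/- and 4.32, 4.55, 2.17 and 4.36 in MK2/3-/- BMDM. Of these arrays, 3 of 4 from wt, 0 of 3 from MK2-/- and 2 of 4 from MK2/3-/- BMDM had a signal well above background. After LPS it was at 11.04, 12.88, 11.36 and 11.58 in wt, 10.71, 11.89, 10.86 and 11.22 in MK2-/- and 12.26, 12.97, 12.06 and 11.88 in MK2/3-/- BMDM. *Ccl12* rose 187-fold in wt (7.54, SE 0.50, adjusted p = 1.72e-09) and 347-fold in MK2/3-/- BMDM (8.44, SE 0.50, adjusted p = 3.22e-10). In MK2-/- BMDM it was at least 169-fold higher after LPS (adjusted p = 6.59e-09). Where no array of a group was well above background, such a lower bound is given, for which each signal of that group was set no lower than the faintest probe of the same array that was well above background. Raising the dim medium arrays in this way gave 264-fold for *Ccl12* and 733-fold for *Ccl7* in MK2/3-/- BMDM. After LPS, 3 of 4 MK2/3-/- arrays were above all MK2-/- arrays (log2 difference 1.12, 95% confidence interval 0.07 to 2.17, unadjusted p = 0.0371, adjusted p = 0.583, exact permutation p = 0.0571), which did not pass the adjustment.

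The summed signal of 5 stromal markers (*Col1a1*, *Col1a2*, *Pdgfrb*, *Dcn* and *Cxcl12*, the signal of *Col1a2* having the largest part in the sum) was set beside these medium levels. It was 106000, 4530, 19900 and 35900 on the wt arrays in medium, 2380, 1270 and 34600 in MK2-/- and 524, 1920, 10400 and 58700 in MK2/3-/- BMDM. In each genotype the medium array with the highest sum also had the highest *Ccl7* signal, and in wt and MK2-/- BMDM the highest *Ccl2* signal. The *Ccl12* signal of that array was the lowest in wt (3.29), the highest in MK2-/- (4.08) and below the highest in MK2/3-/- BMDM (4.36 against 4.55). Of the chemokines described below, *Ccl17* was the highest on that array in each genotype, whereas *Ccl3*, *Ccl4* and *Ccl5* were the lowest on it in wt BMDM. *Ccl3* and *Ccl5* were the highest on it in MK2-/- (12.93 and 16.59) and the lowest in MK2/3-/- BMDM (12.05 and 15.48). Among the other arrays the order differed, as *Ccl7* was ever lower and the sum ever higher from culture 2 to culture 4 of wt BMDM. After LPS the sums were 88000, 4070, 19100 and 35200 in wt, 2810, 1680, 7740 and 32300 in MK2-/- and 999, 2020, 12300 and 48700 in MK2/3-/- BMDM, with the cultures of a genotype in the same order as in medium. The LPS array with the highest sum had the highest *Ccl7* signal in no genotype (14.74 against 15.16 in wt, 14.18 against 15.02 in MK2-/- and 14.07 against 15.08 in MK2/3-/- BMDM). Its *Ccl2* signal was the highest in wt and the lowest in MK2-/- BMDM. Its *Ccl17* signal was the lowest of the group in MK2-/- (10.18) and MK2/3-/- BMDM (10.64). Between 2 and 5 of the 5 markers were well above background on an array. The part of stromal RNA in the chemokine levels was not tested.

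*Ccl3*, *Ccl4* and *Ccl5* encode chemokines that recruit macrophages, dendritic cells and activated T cells, and those of *Ccl3* and *Ccl5* bind CCR1. *Ccl3* was at 10.96, 13.01, 12.20 and 12.10 in wt, 11.98, 12.72 and 12.93 in MK2-/- and 13.16, 13.08, 12.37 and 12.05 in MK2/3-/- BMDM in medium. LPS brought it to 17.79, 18.25, 17.91 and 17.84 in wt, 17.93, 18.03, 17.78 and 17.78 in MK2-/- and 17.78, 17.85, 17.62 and 17.52 in MK2/3-/- BMDM. The LPS arrays thus lay between 17.52 and 18.25, whereas the medium arrays spread from 10.96 to 13.16. *Ccl3* rose 59-fold in wt (5.88, SE 0.32, adjusted p = 1.12e-10), 40.5-fold in MK2-/- (5.34, SE 0.35, adjusted p = 1.61e-09) and 32.6-fold in MK2/3-/- BMDM (5.03, SE 0.32, adjusted p = 8.85e-10). The response of MK2/3-/- differed from that of wt BMDM by -0.86 (95% confidence interval -1.81 to 0.10, adjusted p = 1).

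*Ccl4* gave 11.32, 13.51, 12.91 and 12.76 on wt, 12.29, 13.21 and 13.14 on MK2-/- and 14.36, 14.30, 13.11 and 13.24 on MK2/3-/- arrays in medium. With LPS it reached 18.42, 18.58, 18.65 and 18.58 in wt, 18.56, 18.52, 18.38 and 18.62 in MK2-/- and 18.54, 18.60, 18.58 and 18.47 in MK2/3-/- BMDM. These LPS levels lie close to 18.94, the highest level that normalization gave to any probe, although 0 spots of *Ccl4* were saturated. *Ccl4* rose 61-fold in wt (5.93, SE 0.35, adjusted p = 3.51e-10), 50-fold in MK2-/- (5.64, SE 0.38, adjusted p = 2.65e-09) and 27.7-fold in MK2/3-/- BMDM (4.79, SE 0.35, adjusted p = 5.9e-09). In medium, MK2/3-/- differed from wt BMDM by 1.13 (95% confidence interval 0.39 to 1.87, unadjusted p = 0.00478, adjusted p = 0.698, exact permutation p = 0.114) and from MK2-/- BMDM by 0.88 (0.08 to 1.68, unadjusted p = 0.0332, adjusted p = 1). Of the 4 MK2/3-/- arrays, 2 were above all wt arrays. The difference in LPS response to wt was -1.14 (95% confidence interval -2.19 to -0.09, unadjusted p = 0.0347, adjusted p = 1). Without the first wt array in medium, these *Ccl4* differences between MK2/3-/- and wt BMDM were 0.70 in medium and -0.70 in the LPS response. None of these passed the adjustment, and after LPS the difference to wt was -0.01 (-0.75 to 0.73).

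Medium levels of *Ccl5* were high and uneven, at 13.33, 16.16, 17.10 and 15.39 in wt, 15.55, 15.84 and 16.59 in MK2-/- and 16.33, 16.82, 15.98 and 15.48 in MK2/3-/- BMDM. After LPS the arrays read 18.22, 18.52, 18.54 and 17.96 in wt, 18.76, 18.58, 18.47 and 18.27 in MK2-/- and 18.58, 18.58, 18.56 and 18.03 in MK2/3-/- BMDM, again close to the top of the scale. The first wt array in medium, which was the highest for *Ccl2* and *Ccl7*, was the lowest for *Ccl3*, *Ccl4* and *Ccl5*. *Ccl5* rose 7.03-fold in wt (2.81, SE 0.52, adjusted p = 0.000538), 5.76-fold in MK2-/- (2.53, SE 0.56, adjusted p = 0.00264) and 4.86-fold in MK2/3-/- BMDM (2.28, SE 0.52, adjusted p = 0.00238). Without the first wt array in medium the wt value was 4.26-fold (adjusted p = 0.000314). With the methods' t-test the rise in wt BMDM did not pass the adjustment added here (adjusted p = 0.0836).

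*Ccl6* and *Ccl9* are ligands of CCR1 that rodents carry beside the other CC chemokines, and they neighbour each other on chromosome 11. *Ccl6* was at 12.12, 12.72, 12.44 and 12.05 in medium and 12.09, 12.56, 12.40 and 12.28 after LPS in wt BMDM. MK2-/- BMDM had 13.22, 12.73 and 12.38 in medium and 13.32, 12.50, 12.30 and 12.54 after LPS, and MK2/3-/- BMDM 13.27, 12.88, 12.10 and 12.15 and then 13.07, 12.69, 12.39 and 12.20. Medium and LPS arrays overlapped in every genotype. The log2 difference was 0.00 in wt (95% confidence interval -0.59 to 0.59, adjusted p = 0.999), -0.11 in MK2-/- (-0.75 to 0.53, adjusted p = 0.886) and -0.01 in MK2/3-/- BMDM (-0.60 to 0.58, adjusted p = 0.987).

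*Ccl9* gave 15.90, 15.59, 14.76 and 14.77 in medium and 17.75, 17.84, 17.23 and 17.39 after LPS in wt BMDM. In MK2-/- BMDM the values were 16.10, 15.79 and 14.98 in medium and 18.12, 17.93, 17.61 and 17.26 after LPS. The MK2/3-/- arrays had 16.05, 15.83, 14.54 and 14.83 in medium and 17.84, 17.67, 17.46 and 17.14 after LPS. In each genotype, cultures 1 and 2 were higher than the others both in medium and after LPS. *Ccl9* rose 4.92-fold in wt (2.30, SE 0.34, adjusted p = 6.66e-05), 4.3-fold in MK2-/- (2.10, SE 0.37, adjusted p = 0.000346) and 4.64-fold in MK2/3-/- BMDM (2.21, SE 0.34, adjusted p = 6.39e-05). The genotypes overlapped within each treatment for both genes, and after LPS the differences to wt were between -0.03 and 0.33, with adjusted p from 0.768 to 0.992.

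*Ccl17* and *Ccl22* encode the ligands of CCR4, which is carried by regulatory T cells and Th2 cells, and both are known as products of dendritic cells and of activated macrophages. *Ccl17* was at 5.98, 4.51, 5.01 and 5.55 in wt, 4.57, 4.15 and 6.00 in MK2-/- and 5.65, 5.43, 5.97 and 7.49 in MK2/3-/- BMDM in medium. With LPS the arrays read 12.37, 12.47, 9.83 and 10.90 in wt, 12.44, 12.80, 12.06 and 10.18 in MK2-/- and 11.02, 12.02, 11.16 and 10.64 in MK2/3-/- BMDM. Medium and LPS arrays did not overlap, and the LPS arrays of wt and MK2-/- BMDM spread over more than 2 log2 units. *Ccl17* rose 70.1-fold in wt (6.13, SE 0.65, adjusted p = 1.01e-06), 125-fold in MK2-/- (6.96, SE 0.70, adjusted p = 5.06e-07) and 33.7-fold in MK2/3-/- BMDM (5.07, SE 0.65, adjusted p = 7.04e-06). The responses of both knockouts differed by -1.89 (95% confidence interval -3.88 to 0.11, unadjusted p = 0.0622, adjusted p = 1), MK2/3-/- being the lower.

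*Ccl22* was dim in medium, with a signal well above background in 1 of 4 wt, in 0 of 3 MK2-/- and in 1 of 4 MK2/3-/- cultures, where it gave 4.09, 3.30, 1.83 and 1.79, then 3.42, 2.58 and 1.77, and then 4.10, 3.11, 2.78 and 1.76. LPS brought it to 11.21, 11.45, 9.14 and 9.42 in wt, 11.58, 11.58, 10.65 and 9.82 in MK2-/- and 10.70, 10.75, 9.03 and 9.33 in MK2/3-/- BMDM. Cultures 1 and 2 were the highest after LPS in every genotype. *Ccl22* rose 188-fold in wt (7.55, SE 0.67, adjusted p = 1.07e-07) and 129-fold in MK2/3-/- BMDM (7.01, SE 0.67, adjusted p = 1.93e-07) by the measured signals, or 97.5-fold and 74.5-fold with the dim medium arrays raised in the way of the lower bounds. It was at least 163-fold higher after LPS in MK2-/- BMDM (adjusted p = 8e-08). Folds of *Ccl7*, *Ccl12*, *Ccl17* and *Ccl22* were smaller in the alternative that used the median signal of each spot, normexp and an added offset of 50. Which of these lowered them was not tested. There the rise in wt BMDM was 18.6-fold for *Ccl22*, 27.4-fold for *Ccl17*, 36.4-fold for *Ccl12* and 124-fold for *Ccl7*, and all 4 passed the adjustment in every genotype. In MK2-/- BMDM it was 27.8-fold for *Ccl12* and 28-fold for *Ccl22*, below the bounds of 169-fold and 163-fold, which therefore hold only for the signals as processed here.

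For each of the 9 chemokines that rose, all LPS arrays were above all medium arrays of the same genotype. The two-sided exact permutation test therefore gave p = 0.0286 in each genotype, the smallest value that 4 arrays against 4 or 3 allow. The share of all genes with such a separation was not determined, so how unusual it is cannot be judged. For LPS against medium, an unadjusted p under 0.05 in limma was reached by 26.7% of all genes for wt BMDM. This share was 28.8% when MK2 was lacking and 34.4% when both kinases were lacking. Among the differences to wt after LPS, the intervals of *Ccl7* were the widest, such as that of -0.38 in MK2-/- BMDM (95% confidence interval -2.07 to 1.31), and those of *Ccl6* the narrowest, such as that of 0.26 in MK2/3-/- BMDM (-0.33 to 0.84). A p above the threshold therefore does not show that the levels were equal.

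**Figure D2:**
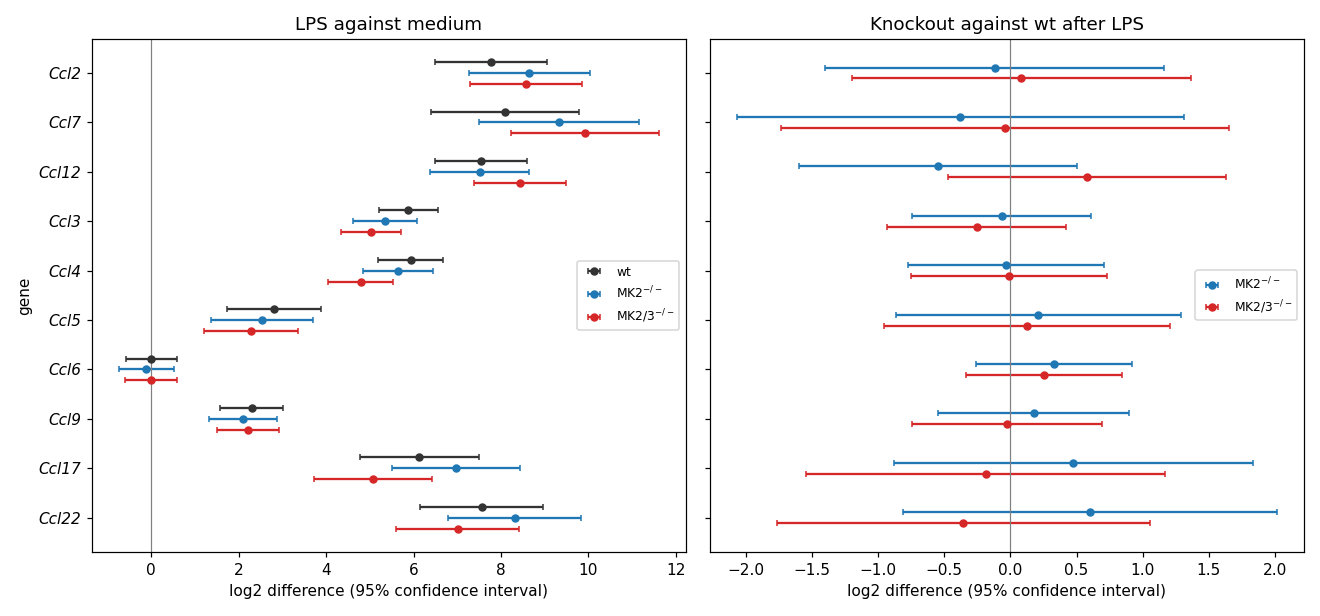
Log2 differences of the 10 chemokines with 95% confidence intervals from limma, for LPS against medium in each genotype (left) and for each knockout against wt after LPS (right; the axes differ in scale). All intervals on the left lie above 0 except those of *Ccl6*, and all intervals on the right include 0; the points of *Ccl12* and *Ccl22* for MK2-/- on the left use measured signals, for which the text gives lower bounds.

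Markers of dendritic cells were examined because these cells make *Ccl17* and *Ccl22*. Of 6 such markers (*Flt3*, *Zbtb46*, *Cd209a*, *Itgax*, *Ccr7* and *Xcr1*) 2 were well above background on every array. Their summed signal, in which the signal of *Itgax* had the largest part, was 3810, 8350, 1830 and 2250 on wt, 5300, 10500 and 4740 on MK2-/- and 12700, 12600, 3910 and 4650 on MK2/3-/- arrays in medium. After LPS it was 5350, 10400, 4080 and 3550 in wt, 6570, 11200, 6300 and 7470 in MK2-/- and 13400, 15600, 7130 and 7060 in MK2/3-/- BMDM. After LPS the array of culture 2 had both the highest sum and the highest *Ccl17* signal in each genotype, but in medium the array of culture 2 had the lowest *Ccl17* signal in each genotype, although its sum was the highest in wt and MK2-/- BMDM. LPS raised 2 of the 6 in wt (*Zbtb46* and *Ccr7*, the latter not with the methods' t-test), where 8.16% of all genes were higher, and 1 of the 6 in each knockout (*Zbtb46*; 8.41% and 11.9%), whereas *Flt3*, *Itgax* and *Cd209a* did not pass the test in any genotype. *Zbtb46*, a transcription factor of conventional dendritic cells, rose 45.1-fold in wt, 42.3-fold in MK2-/- and 54.6-fold in MK2/3-/- BMDM (adjusted p = 3.08e-10, 1.45e-09 and 1.45e-10). The part of dendritic cells in the levels of *Ccl17* and *Ccl22* was not tested.

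Of 14 other CC ligands 10 were measured, and LPS raised 2 of 10 in wt (8.16% of all genes), 2 of 10 in MK2-/- (8.41%) and 3 of 10 in MK2/3-/- BMDM (11.9%), with 0 lower in each in limma. With the culture or the replicate number as a block, *Ccl8* in wt, *Ccl1* in MK2-/- and *Ccl19* in MK2/3-/- BMDM passed as well (adjusted p = 0.0352, 0.0323 and 0.0366 with the culture), *Ccl1* without a signal well above background on any MK2-/- array. *Ccl24*, a ligand of CCR3 that attracts eosinophils, was at 3.92 to 5.35 in medium and 5.63 to 7.12 after LPS in wt BMDM, and rose 3.3-fold in wt, 3.07-fold in MK2-/- and 2.78-fold in MK2/3-/- BMDM (adjusted p = 0.00485, 0.0123 and 0.0103), though with the methods' t-test these did not pass (adjusted p = 0.0676, 0.0748 and 0.0507). *Ccl19*, a ligand of CCR7, rose 1.55-fold (adjusted p = 0.0496, arrays overlapping) in wt and 1.76-fold (adjusted p = 0.0168) in MK2-/- BMDM, calls that were kept in only 12 and 27 of 34 alternatives. *Ccl19* has 3 probes, of which the one most induced in wt BMDM was tested, and with the mean over them neither rise passed (0.53, adjusted p = 0.0534, and 0.37, adjusted p = 0.224). *Ccl8*, which lies between *Ccl12* and *Ccl1*, was not well above background on any MK2/3-/- array in medium and was at least 5.15-fold higher after LPS (adjusted p = 0.00792, but 0.0956 with the methods' t-test and 0.0532 with only the groups compared). Its measured log2 difference of 3.28 was 2.55 without the second and 4.25 without the fourth MK2/3-/- array after LPS, and with normexp the difference of *Ccl8* was 1.04, below its bound. *Ccl1* passed the test in MK2/3-/- BMDM as well, though not with the methods' t-test (adjusted p = 0.0703), but was not well above background on any array of either treatment there, so that no fold is given. Between genotypes 0 of 10 other ligands passed in limma in any comparison, with at most 2 at an unadjusted p under 0.05 (for MK2/3-/- against wt in medium, where 0.0792% of all genes passed and 4.66% had such a p).

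All 13 CC receptors listed were measured, and LPS raised 5 of 13 in wt (8.16% of all genes), 4 of 13 in MK2-/- (8.41%) and 7 of 13 in MK2/3-/- BMDM (11.9%), with 0 lower in limma (8.78%, 9.98% and 12.8%). *Ccr2*, the receptor for *Ccl2*, *Ccl7* and *Ccl12*, was at 11.87, 11.69, 10.92 and 10.63 in medium and 10.43, 10.32, 10.18 and 10.19 after LPS in wt BMDM. All 4 LPS arrays were below the medium arrays there. The difference, with a 95% confidence interval of -2.01 to 0.01, did not pass the adjustment in the model without a block for the culture (adjusted p = 0.195). Nor did those of -1.26 (adjusted p = 0.108) in MK2-/- and -1.10 (adjusted p = 0.109) in MK2/3-/- BMDM, where the arrays overlapped.

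*Ccr3* rose 7.04-fold in wt, 5.55-fold in MK2-/- and 4.01-fold in MK2/3-/- BMDM (adjusted p = 0.000201, 0.00137 and 0.00307, the last lost with the methods' t-test at 0.0628), and *Ccr9* 5.52-fold, 5.49-fold and 5.95-fold (adjusted p = 1.27e-06, 3.27e-06 and 4.77e-07). *Ccr8* rose 3.16-fold (adjusted p = 0.0014) in MK2-/- and 3.34-fold (adjusted p = 0.000311) in MK2/3-/- BMDM, and in wt its log2 difference was 0.79 (adjusted p = 0.098), or 1.17 without the third array in medium (adjusted p = 0.00404). *Ccr7* rose 9.22-fold in wt BMDM (adjusted p = 0.021) with overlapping arrays, and *Ccr6* 2.21-fold in MK2/3-/- BMDM (adjusted p = 0.0384), likewise with overlap. *Ackr2*, which takes up CC chemokines without signalling, was at least 1.71-fold higher after LPS in wt BMDM (adjusted p = 0.0312) and rose 2.29-fold in MK2/3-/- BMDM (adjusted p = 0.0372). In MK2/3-/- BMDM its signal was well above background on 1 of 4 medium and 2 of 4 LPS arrays. With the mean over its 2 probes the log2 difference there was 0.57 instead of 1.20 and did not pass (adjusted p = 0.0741). Both *Ackr2* calls were lost with scaling to the 75th percentile (adjusted p = 0.058 in wt and 0.173 in MK2/3-/- BMDM). The calls of *Ccr6*, *Ccr7* and *Ackr2* were lost with the methods' t-test (adjusted p = 0.103 and 0.166, and for *Ackr2* 0.0797 in wt and 0.139 in MK2/3-/- BMDM), and with normexp *Ackr2* in wt BMDM differed by 0.19 (adjusted p = 0.159), below its bound. Each was also lost without some single arrays, for example *Ccr7* without the third wt array in medium (adjusted p = 0.0907). The log2 difference of *Ccr7* in wt BMDM, 3.21, was 2.47 without that array and 4.28 without the second.

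*Ccrl2*, a receptor that binds chemerin and does not signal, was the only one of these ligands and receptors that passed the test between genotypes. In medium it was at 6.40, 7.52, 7.48 and 7.15 in wt, 7.54, 7.35 and 7.75 in MK2-/- and 8.67, 8.76, 8.60 and 8.60 in MK2/3-/- BMDM. After LPS it was at 12.51, 12.86, 13.69 and 13.47 in wt, 13.29, 13.22, 13.41 and 13.95 in MK2-/- and 14.76, 14.53, 15.42 and 15.27 in MK2/3-/- BMDM. All MK2/3-/- arrays were above all arrays of the other genotypes in each treatment. *Ccrl2* rose with LPS 63.8-fold in wt, 60.6-fold in MK2-/- and 80.9-fold in MK2/3-/- BMDM (adjusted p = 7.98e-12, 4.28e-11 and 3.88e-12). After LPS it was 3.64-fold higher in MK2/3-/- than in wt BMDM (adjusted p = 0.00168, exact permutation p = 0.0286) and 2.89-fold higher than in MK2-/- BMDM (adjusted p = 0.0247), and in medium 2.87-fold higher than in wt BMDM (adjusted p = 0.0354). These calls were lost when only the arrays of the groups compared were fitted (adjusted p = 0.154, 0.297 and 0.239) and with the methods' t-test (0.238, 0.442 and 0.442). The call against wt after LPS was kept without any single array. That against MK2-/- BMDM was lost in 4 of the fits without 1 array (adjusted p from 0.0782 to 0.1), and that in medium in 9 (from 0.0521 to 0.169) and with normexp (0.0774). Without both arrays that held no gradient fit, an alternative chosen after seeing the data, these 2 calls were lost as well (0.132 and 0.175). *Ccrl2* lies on chromosome 9, as does *Mapkapk3*, and whether this position has a part in the difference was not tested.

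**Figure D3:**
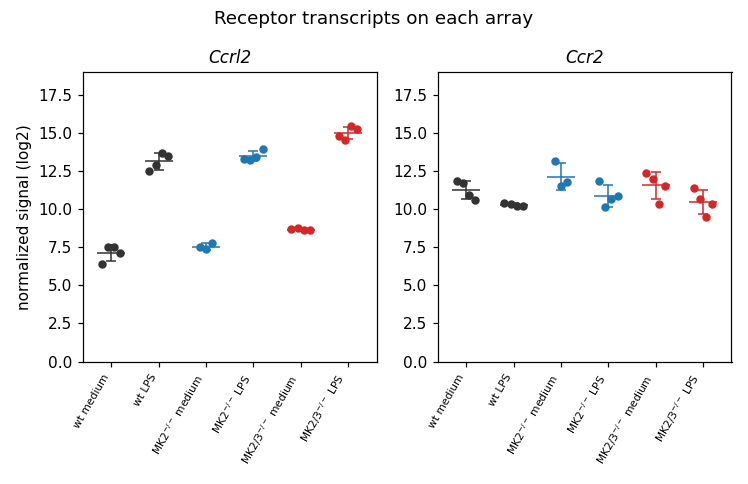
Normalized log2 signal of *Ccrl2* and *Ccr2* on every array, by genotype and treatment, with points for arrays, lines for group means and bars for the SD. For *Ccrl2* the MK2/3-/- arrays lie above those of the other genotypes in medium and after LPS.

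The patterns of the 10 chemokines over the 6 groups were compared by the root-mean-square difference of their group means, each gene centred on the mean of its 6 means. *Ccl3* and *Ccl4*, which lie side by side, were the most alike pair (0.24 log2 units), followed by *Ccl5* and *Ccl9* (0.25), and *Ccl6* and *Ccl7* the least alike (4.63). By the same measure over 13370 genes outside the CC ligands, the pattern most like that of *Ccl2* was that of *Adamts4* (0.30) and then *Plat* (0.32). *Ccl7* was closest to *Cish* (0.51) and *Adamts4* (0.53), and *Ccl12* to *Rsad2* (0.32) and *Socs1* (0.33). For *Ccl3* these genes were *Jdp2* (0.15) and *Fpr1* (0.18), for *Ccl4* *Gm6377* (0.22) and *Pim1* (0.27), and for *Ccl5* *Icosl* (0.10) and *Trex1* (0.12). The nearest gene of *Ccl6* was *Scaper* (0.02), and those of *Ccl9* were *Nfkb1* (0.06) and *Pik3r5* (0.08). *Ccl17* was nearest to *Mmp13* (0.35) and *Il4i1* (0.37), and *Ccl22* to *Tnf* (0.29) and *Cxcl10* (0.29). For *Ccl12* and *Ccl22* these distances use the measured signals of MK2-/- BMDM in medium, which were not well above background, and are therefore approximate. As the LPS response dominates these patterns, a small distance mostly reflects a response of similar size.

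The genes fall into 3 clusters in the RefSeq gene table of the assembly GRCm38.p6. On chromosome 11, *Ccl2*, *Ccl7*, *Ccl11*, *Ccl12*, *Ccl8* and *Ccl1* follow each other. A further cluster on chromosome 11 holds *Ccl5*, *Ccl9*, *Ccl6*, *Ccl3* and *Ccl4* in this order, so that *Ccl6*, which did not pass the test, lies between *Ccl9* and *Ccl3*, which rose in every genotype. On chromosome 8, *Ccl22* and *Ccl17* lie on either side of *Cx3cl1*.

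Promoter sequences of 300 bases from RefSeq (GRCm38.p6) were matched by gene name for 6 of the 10 chemokines, *Ccl12*, *Ccl3*, *Ccl6*, *Ccl9*, *Ccl17* and *Ccl22*. They were searched on both strands for the κB consensus, for GAAANNGAA (the core of the interferon-stimulated response element), for TGANTCA (AP-1) and for TATAAA. Among 32851 promoters of this length, 8.46% hold a match to the κB consensus, 8.56% to GAAANNGAA, 7.81% to TGANTCA and 13.6% to TATAAA. *Ccl6*, *Ccl17* and *Ccl22* had no match in this window. The promoters of *Ccl3*, *Ccl9* and *Ccl12*, which hold matches, are shown with that of *Ccl6*, whose transcript did not pass the test, in lower case with all matches in capitals. Positions count from the annotated transcript start. *Ccl12* (chr11:82101595-82101894, plus strand) has TATAAA from -31 to -26. *Ccl3* (chr11:83649329-83649628, minus strand) has GAAANNGAA on the opposite strand from -39 to -31. *Ccl9* (chr11:83578587-83578886, minus strand) has a κB match on the opposite strand from -35 to -26, TGANTCA from -53 to -47, which reads the same on both strands in this pattern, and TATAAA on the opposite strand from -224 to -219 and from -94 to -89 and on its own strand from -92 to -87, the last overlapping the one before. *Ccl6* is at chr11:83593038-83593337 on the minus strand. A match describes letters in a sequence and is neither a bound site nor a cause.
Ccl12: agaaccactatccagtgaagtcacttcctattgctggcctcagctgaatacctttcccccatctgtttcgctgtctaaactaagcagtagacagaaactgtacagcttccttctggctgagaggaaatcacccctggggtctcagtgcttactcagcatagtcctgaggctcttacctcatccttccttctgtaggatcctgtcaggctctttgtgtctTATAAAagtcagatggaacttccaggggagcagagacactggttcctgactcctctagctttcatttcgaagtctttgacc
Ccl3: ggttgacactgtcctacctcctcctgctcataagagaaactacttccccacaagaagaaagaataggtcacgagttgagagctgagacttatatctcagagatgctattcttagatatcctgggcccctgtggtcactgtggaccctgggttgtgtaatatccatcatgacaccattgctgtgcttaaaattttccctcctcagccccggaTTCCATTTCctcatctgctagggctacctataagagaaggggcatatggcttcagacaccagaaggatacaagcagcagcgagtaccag
Ccl9: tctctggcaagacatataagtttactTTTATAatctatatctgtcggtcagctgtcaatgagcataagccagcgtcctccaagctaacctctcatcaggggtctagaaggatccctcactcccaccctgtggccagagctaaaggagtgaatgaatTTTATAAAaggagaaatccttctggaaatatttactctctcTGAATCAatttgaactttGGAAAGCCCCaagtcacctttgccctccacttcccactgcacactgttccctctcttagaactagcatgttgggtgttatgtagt
Ccl6: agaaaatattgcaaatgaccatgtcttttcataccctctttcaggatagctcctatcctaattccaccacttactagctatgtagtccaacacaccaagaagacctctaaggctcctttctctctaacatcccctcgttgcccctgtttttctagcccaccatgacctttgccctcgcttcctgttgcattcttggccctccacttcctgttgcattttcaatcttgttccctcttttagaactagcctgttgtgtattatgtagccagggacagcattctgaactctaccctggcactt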

How the data were processed

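RNA of 23 samples was measured on single-dye Agilent arrays of 62976 spots. The spot intensity deposited by the authors came from Feature Extraction 11.0.1.1 and, per the file headers, is linear, background-subtracted and corrected for gradients, though 2 arrays held no gradient fit. The log2 table deposited by the authors is quantile normalized and relative to each probe's median, with column medians between -0.02 and 0.02. Against the intensities treated likewise its values had r = 1, and its direction is that of the intensities. The share of probes well above background was 47.54 to 69.09% per array, and 0 spots were saturated.

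Control and marked spots were left out, intensities log2 transformed, spots of a probe averaged and arrays quantile normalized (R 4.3.3, limma 3.58.1, data.table version 1.17.8; figures with Python 3.11.15 and matplotlib 3.10.9). Probes with an NCBI accession (33391 of 55681) were kept, and 27509 of 29150 RefSeq probes were named through the RefSeq gene table. Where a gene had more than 1 probe, the one most induced by LPS in wt BMDM was taken, as in the methods. All arrays entered 1 linear model with 6 groups (lmFit and eBayes), Benjamini-Hochberg adjustment covered 26512 genes with a threshold of 0.05, and adjusted p-values are those of limma unless another test is named. The same adjustment was applied to the methods' t-test, for which the paper states none. Exact permutation tests are two-sided. Named genes are the 10 chemokines, *Mapkapk2* and *Mapkapk3*, markers, most other CC ligands and receptors called in any comparison, and at most 2 alike genes of each chemokine. *Ccr2* was added after its values were seen. The members and lists were chosen with earlier results of these data known. The steps were tested on simulated data.

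Medium and LPS arrays of a culture share genotype, replicate number and mouse age in the labels, the third MK2-/- array in medium sharing those of the fourth culture by age. Deviations from the group means correlated with r between 0.0626 and 0.561 for the 11 pairs of a culture (10 over 0.1) and between -0.376 and 0.12 for 33 other pairs, so the culture was tried as a block. The other alternatives were scaling to the 75th percentile, the deposited log2 values, normexp, a floor of 5, the mean over probes, a filter on dim probes, only the groups compared, the methods' t-test, the replicate number as a block, leaving out each array, and, chosen after seeing the data, leaving out both arrays without a gradient fit.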

Additional observations from a re-analysis of the deposited data

Results flagged for a closer look

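In 4 of 50 groups of 4 arrays, 1 array lay far from the others by Dixon's test. The test divides the gap to the nearest neighbour by the range of the group and requires a ratio above the critical value for 4 arrays. Groups in which a gap took up much of the range but the ratio stayed below that value were not counted. Chance alone marks about 5% of groups in this way. *Ccl2* was at 14.63 on the third wt array after LPS and at 16.44 to 16.79 on the others (gap over range 0.838), and the same array was also the lowest of its group for *Ccl7*, *Ccl17* and *Ccl22*. *Ccl7* was at 8.83 on the first wt array in medium and at 5.13 to 5.56 on the others (0.884). *Ccl12* was at 2.17 on the third MK2/3-/- array in medium, where it was not well above background, and at 4.32 to 4.55 on the others (0.905). *Ccl5* was at 18.03 on the fourth MK2/3-/- array after LPS and at 18.56 to 18.58 on the others (0.968), a distance of about 0.5 log2 units. The LPS response differed between genotypes for 0 of the 10 chemokines in limma after adjustment, with 1 at an unadjusted p under 0.05 (*Ccl4*), and 0 by the methods' t-test.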

How the results depend on the processing

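Under all alternatives LPS raised 9 of 10 chemokines in each genotype, except for 8 in wt BMDM with the methods' t-test, and 0 of 10 passed in any genotype comparison or interaction. Leaving out 1 array at a time gave 9 to 9 for LPS and 0 to 0 for the others. With the culture or the replicate number as a block, the counts were 9 for LPS and 0 for the others, and the block changed no call of the 10 chemokines. Of 1020 LPS values under alternatives 1019 kept their side of the threshold and 0 reversed; 14 uncalled ones changed sign, as did 73 of 2040 genotype and 53 of 1020 interaction values. Normexp on the median signal with an added offset of 50 gave lower folds for *Ccl7*, *Ccl12*, *Ccl17* and *Ccl22*. The fall was largest for *Ccl22* in MK2-/- BMDM (log2 4.81 against 8.31 by the measured signals). Without both arrays that held no gradient fit, chosen after seeing the data, the counts were again 9 and 0.

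Counts over all genes moved more. After LPS, MK2/3-/- against wt BMDM gave 436 genes, but 6 with only the groups compared, 5 with the methods' t-test and 945 with the replicate block; MK2-/- against wt gave 8, then 1, 3 and 26, and MK2/3-/- against MK2-/- 42, then 8, 3 and 113 (27 at the 75th percentile, 17 without both arrays). In medium the counts of 2, 21 and 12 became 0, 13 and 0 with only the groups compared, 0, 2 and 0 with the methods' t-test, and 33 for the second with the replicate block; the last was 7 at the 75th percentile, and the last pair were 11 and 6 without both arrays. The interaction counts of 1, 3 and 0 ranged from 0 to 2, 1 to 15 and 0 to 1 over all alternatives. Signals near background limit *Ccl12* and *Ccl22* in medium and *Ccl7* in medium in both knockouts, and the upper end of the scale *Ccl4* and *Ccl5* after LPS.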
